A study of Mus musculus with 8 samples.

Results

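Genes of Gdnf-Ret signalling in the nephric duct were followed probe by probe: the ligand gene Gdnf, the receptor genes Ret and Gfra1, the target transcription factor genes Etv4 and Etv5, and the feedback inhibitor gene Spry1. They were picked by name, as the probes whose transcript accession maps to these symbols, and the 6 genes were read by 7 of the 55681 probes on the array (2 for Etv4 and 1 for each of the others), out of 19752 genes with a symbol. RNA came from mesonephric tubules cut by microdissection from toluidine blue stained frozen sections of mouse embryos; this temporary kidney of the embryo drains through the nephric duct. The strain is labelled C57/BL6 in both groups. The first group was wild type and is described as senescent (5 arrays); the other lacks p21, the cyclin-dependent kinase inhibitor encoded by Cdkn1a, and is described as non-senescent (3 arrays). Neither the embryonic stage, the sex nor the number of embryos behind a sample is given in the labels, so p-values measure the spread between these samples, which may be technical in part.

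GDNF is a secreted growth factor that binds the cell-surface co-receptor GFRα1, and together they activate the receptor tyrosine kinase RET. In the embryo the mesenchyme beside the nephric duct makes GDNF, and RET and GFRα1 on duct cells receive it, which drives budding and branching of the duct. Signalling from RET raises the ETS-family transcription factor genes Etv4 and Etv5, and Sprouty1 dampens the response as a feedback inhibitor. Neural crest cells of the gut and autonomic ganglia also use RET and GFRα1, and receptor tyrosine kinases other than RET, such as FGF receptors, also induce Etv4, Etv5 and Spry1.

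The stretches of DNA just before the start sites of Etv5, Spry1 and Gdnf are shown because they let the control regions of a target, the feedback inhibitor and the ligand be read beside their values. Each line holds the 250 bases upstream of a RefSeq start (build GRCm38.p6), 5′ to 3′ on the strand of the gene. Capitals mark matches, on either strand, to GGGCGG, the core of a GC box, or TATAAA, a common core-promoter element.
Etv5, chr16:22439571-22439820, minus strand: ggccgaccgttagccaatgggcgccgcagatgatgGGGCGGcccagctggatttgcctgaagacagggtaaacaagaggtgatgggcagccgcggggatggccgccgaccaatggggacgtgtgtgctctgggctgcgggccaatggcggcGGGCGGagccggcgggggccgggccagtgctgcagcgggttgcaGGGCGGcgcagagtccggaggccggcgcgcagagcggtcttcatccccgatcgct
Spry1, chr3:37639697-37639946, plus strand: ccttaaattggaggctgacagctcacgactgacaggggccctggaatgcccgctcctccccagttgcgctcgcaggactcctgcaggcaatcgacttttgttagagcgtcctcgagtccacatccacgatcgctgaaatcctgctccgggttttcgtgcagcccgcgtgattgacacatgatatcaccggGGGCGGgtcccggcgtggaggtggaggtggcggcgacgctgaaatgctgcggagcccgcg
Gdnf, chr15:7809798-7810047, plus strand: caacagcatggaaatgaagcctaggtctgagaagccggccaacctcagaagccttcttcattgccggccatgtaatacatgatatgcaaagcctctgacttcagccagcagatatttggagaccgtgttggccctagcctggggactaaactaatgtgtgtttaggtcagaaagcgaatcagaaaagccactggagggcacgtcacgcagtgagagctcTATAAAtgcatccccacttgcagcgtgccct
The Etv5 stretch held GGGCGG 3 times and the Spry1 stretch held it once, whereas the Gdnf stretch held none and had TATAAA at position −31 relative to the start. Among 32851 RefSeq stretches of the same length, 32.7% held GGGCGG and 12.4% held TATAAA, on either strand. The ETS-type cores AGGAAG and CGGAAG, which occur in 29.5% and 13.6% of those stretches, were in none of the 3 shown. G and C made up 71.2% of the Etv5 stretch, 62.4% of the Spry1 stretch and 50.8% of the Gdnf stretch. Etv5 and Gdnf each have a second listed start; the stretch before that of Etv5 held 0 GGGCGG and none of the other motifs, and the stretch before that of Gdnf held 1 AGGAAG and 1 CGGAAG. A match is a description of letters and not of a factor bound there.

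All values below are log2 signals minus the 75th percentile of log2 signals on that array, so a value of 0 equals that percentile, and levels of different probes are not set against each other. Differences are labelled p21-null minus wild type. Per array, 82.2% to 89.2% of probes stood well above background and 0 spots were saturated; precision is limited by how few arrays there are. Each of the 3 slides carried both groups: wild-type replicates 1 to 3 shared slide 1 with labelled p21-null replicate 1, wild-type replicate 4 shared slide 2 with replicate 2 of the other group, and wild-type replicate 5 shared slide 3 with its replicate 3. The mean local background was 38.0 to 44.1 on slide 1 and 91.3 to 135 on the other slides. Cdkn1a did not separate the groups: its brighter probe read 2.49, 2.52, 0.44, 1.85 and 1.11 in wild type and 2.11, 0.96 and 1.40 in the arrays labelled p21-null (two-sided exact permutation p = 0.768), and its other probe differed by −0.24 (exact permutation p = 0.482). Where these probes lie with respect to the deletion is not given, so this check may test nothing, and the group is called labelled p21-null throughout.

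Of the 6 genes 5 had a lower mean in the arrays labelled p21-null and 1, Gfra1, had a higher one. Of everything tested, 52.3% had a lower mean there. Ret had the largest difference of the 6 (−2.57) and was well above background on 4 of the 5 wild-type arrays but on 0 of the 3 labelled p21-null. Gdnf, also dim, differed by −1.44, Etv4 by −0.52, Etv5 by −0.45 and Spry1 by −0.15, and Gfra1 differed by 0.42. None passed the test. In limma, with Benjamini-Hochberg adjustment over 33619 genes and unnamed features, 0 of 6 genes had an adjusted p under 0.05, against 0% of everything tested, and 0 of 6 had an unadjusted p under 0.05, against 10.1% of everything tested. For 0 of 6 genes were the groups without overlap, against 6.88% of everything tested. The median difference of the 6 was −0.48, beside −0.0303 over everything tested.

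**Figure D1:**
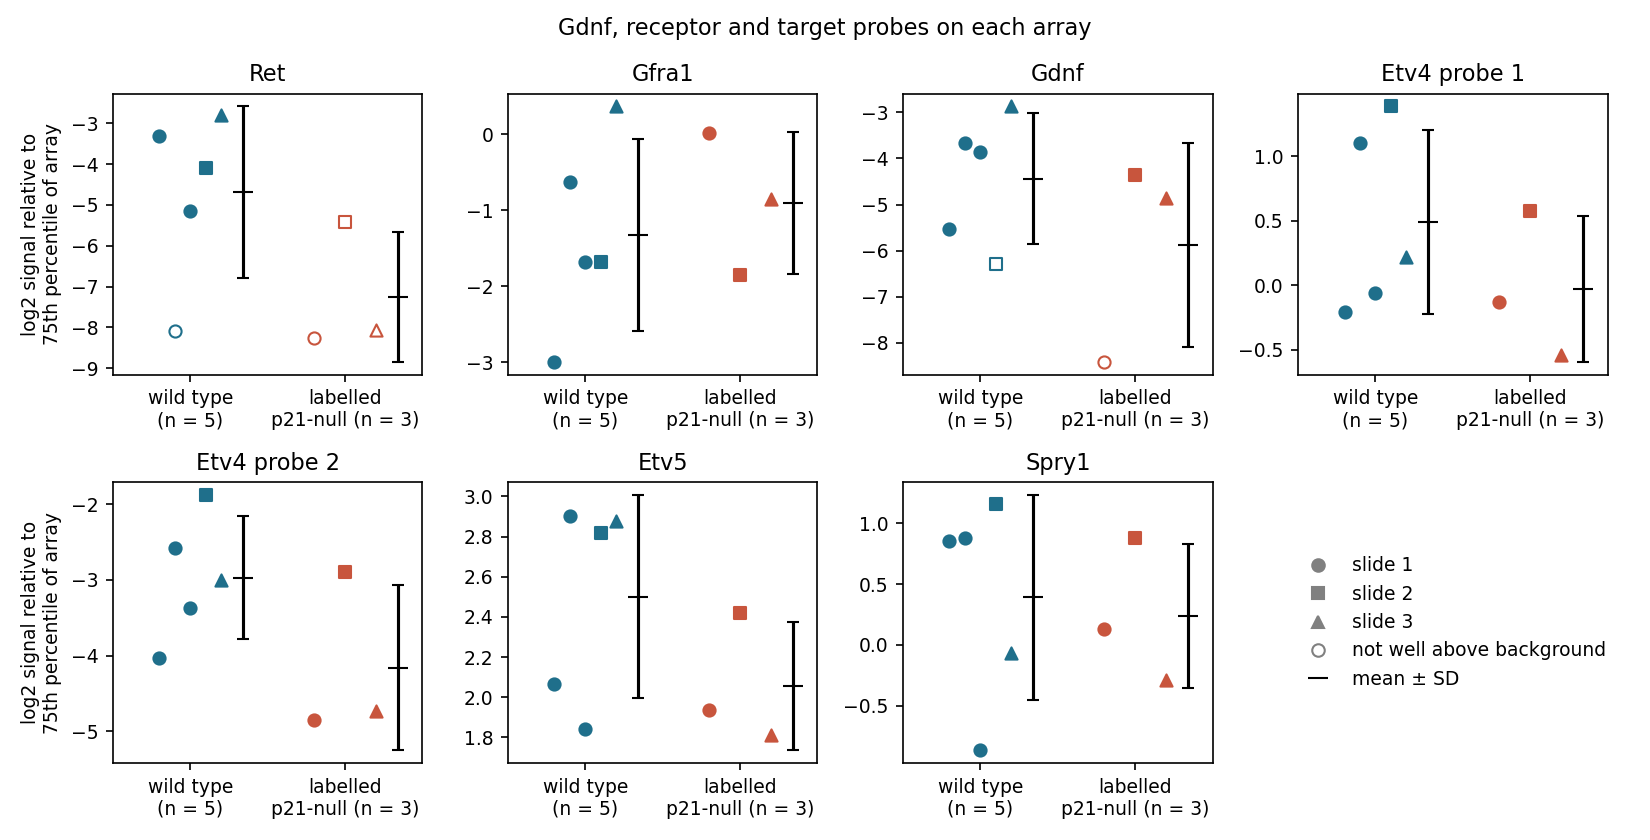
Log2 signal of the 7 probes on each array, with the array's 75th percentile at 0, for 5 wild-type and 3 labelled p21-null arrays; marker shape gives the slide, open markers are spots not well above background, and bars give mean ± SD. All 3 Ret spots of the labelled p21-null group are open, the groups overlap on every probe, and Etv5 spans the narrowest range.

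Ret encodes the receptor tyrosine kinase of the pathway. Its probe (A_55_P2160676) read −3.31, −8.09, −5.15, −4.09 and −2.79 across the wild-type arrays, in replicate order, against −8.27, −5.42 and −8.07 across those labelled p21-null. Wild-type replicate 2 stood with the dim arrays, at a processed intensity of 10.2, whereas wild-type replicate 5 reached 395. The groups overlapped through that 1 wild-type array. Wild type averaged −4.69 ± 2.10 (SD, n = 5) and the labelled p21-null arrays −7.25 ± 1.59 (SD, n = 3), differing by −2.57 with a standard error of 1.19 and a 95% interval from −5.25 to 0.11 (limma unadjusted p = 0.0584, adjusted p = 0.517). The exact permutation test over the 56 splits of the arrays, two-sided, gave p = 0.125; the smallest p it can give is 0.0179.

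Because no labelled p21-null array measured Ret above background, its fold is only approximate. For a floored fold, the labelled p21-null values were raised, where lower, to the lowest signal well above background on their array. The wild-type values, that of replicate 2 included, were left as measured. The mean was then 2.26-fold lower in the labelled p21-null arrays. With dim values of both groups raised in that way, an alternative chosen after seeing the data, the difference was −1.60. This floor is no strict detection limit. Labelled p21-null replicate 2, at −5.42, lay above the floor of its array (−5.56) and was still not well above background. The 2.26-fold value is therefore not a lower bound, and it holds for the processed signals only, not for other background corrections. The labelled p21-null arrays were lower on each slide, by −2.75 on slide 1, −1.33 on slide 2 and −5.29 on slide 3. With slide as a block the difference was −3.07 (limma unadjusted p = 0.0342, adjusted p = 0.446), where 10% of everything tested had an unadjusted p under 0.05. The size depends on how dim spots are read: the difference was −1.14 with normexp background correction and −1.19 in the deposited log2 table. Without wild-type replicate 2 it was −3.42 (limma adjusted p = 0.430), and the lowest adjusted p over all settings was 0.310, with array weights.

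Gfra1 encodes the co-receptor that binds GDNF. The probe (A_52_P398998) was well above background on all 8 arrays and read −3.00, −0.63, −1.68, −1.68 and 0.37 in wild type against 0.01, −1.85 and −0.86 in the arrays labelled p21-null. Both the lowest and the highest array were wild type, so the labelled p21-null arrays lay wholly inside the wild-type range. Wild type averaged −1.32 ± 1.27 (SD, n = 5) and the labelled p21-null arrays −0.90 ± 0.93 (SD, n = 3). The difference of 0.42 had a standard error of 0.73 and a 95% interval from −1.24 to 2.08 (limma adjusted p = 0.911; exact permutation p = 0.696). Its direction was not shared by the slides, at 1.78 on slide 1, −0.17 on slide 2 and −1.23 on slide 3. It was 0.36 with slide as a block. Leaving out labelled p21-null replicate 2 gave 0.90, and leaving out replicate 1 of that group gave −0.0322. Ret and Gfra1, the 2 parts of the receptor, thus had no common order over the arrays: wild-type replicate 1 had the lowest Gfra1 signal and the second-highest Ret signal.

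Gdnf encodes the ligand. Its probe (A_55_P2045896) read −5.52, −3.66, −3.86, −6.30 and −2.87 in wild type and −8.42, −4.37 and −4.86 in the arrays labelled p21-null. The spot was well above background on 4 of 5 wild-type arrays (not on replicate 4) and also on 2 of 3 arrays labelled p21-null (not on replicate 1). Wild type averaged −4.44 ± 1.42 (SD, n = 5) and the labelled p21-null arrays −5.88 ± 2.21 (SD, n = 3), and the difference of −1.44 had a standard error of 1.05 (limma adjusted p = 0.729; exact permutation p = 0.304). It rested largely on 1 array: without labelled p21-null replicate 1 the difference was −0.17. On slides 1, 2 and 3 it was −4.07, 1.93 and −1.99, and with slide as a block −1.76. With dim values raised to the lowest signal well above background, an alternative chosen after seeing the data, it was −0.74, and it was −0.75 with normexp correction.

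Etv4 encodes an ETS-family transcription factor induced by RET signalling in duct tips. Its brighter probe (A_55_P2078780) read −0.21, 1.10, −0.0598, 1.39 and 0.22 in wild type and −0.13, 0.58 and −0.54 in the arrays labelled p21-null. Wild-type replicates 2 and 4 were the highest, and the other arrays of both groups were mixed. The difference was −0.52 with a standard error of 0.46 and a 95% interval from −1.57 to 0.53 (limma adjusted p = 0.792; exact permutation p = 0.339). Slides 1, 2 and 3 gave −0.40, −0.81 and −0.76, and the slide block gave −0.62.

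The second Etv4 probe (A_55_P1959521), dimmer but well above background on all 8 arrays, gave a larger difference of the same sign. It read −4.03, −2.58, −3.37, −1.87 and −3.00 in wild type and −4.85, −2.90 and −4.73 in the arrays labelled p21-null. Labelled p21-null replicates 1 and 3 lay below every wild-type array and replicate 2 lay among them. The difference was −1.19 with a standard error of 0.60 in the limma fit over all probes (adjusted p = 0.582; exact permutation p = 0.143), and it was −1.52, −1.02 and −1.74 on the 3 slides. Over the 8 arrays the 2 probes correlated at r = 0.90, given as a description since they read 1 transcript. Averaging the 2 probes gave −0.85 in place of −0.52.

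Etv5, the close relative of Etv4, varied least among the 6 genes. Its probe (A_55_P2037454) read 2.06, 2.90, 1.84, 2.82 and 2.88 in wild type and 1.94, 2.42 and 1.81 in the arrays labelled p21-null. Wild-type replicates 2, 4 and 5 stood at 2.82 or above and no labelled p21-null array did, but wild-type replicates 1 and 3 lay with the labelled p21-null arrays. Wild type averaged 2.50 ± 0.51 (SD, n = 5) and the labelled p21-null arrays 2.06 ± 0.32 (SD, n = 3). The difference of −0.45, a 1.36-fold lower level, had a standard error of 0.36 and a 95% interval from −1.26 to 0.37 (limma adjusted p = 0.764; exact permutation p = 0.196). It was −0.34, −0.40 and −1.06 on slides 1, 2 and 3 and −0.56 with slide as a block.

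Spry1 encodes Sprouty1, which restrains RET signalling in the duct. The probe (A_55_P1952235) read 0.85, 0.88, −0.87, 1.16 and −0.0710 in wild type and 0.13, 0.88 and −0.29 in the arrays labelled p21-null, which lay inside the wild-type range. The difference of −0.15 had a standard error of 0.52 and a 95% interval from −1.32 to 1.02 (limma adjusted p = 0.959; exact permutation p = 0.768). Slide differences were −0.16, −0.28 and −0.22, and the slide block gave −0.21. The sign turned when wild-type replicate 4 (0.0397) or replicate 3 of the other group (0.11) was left out.

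**Figure D2:**
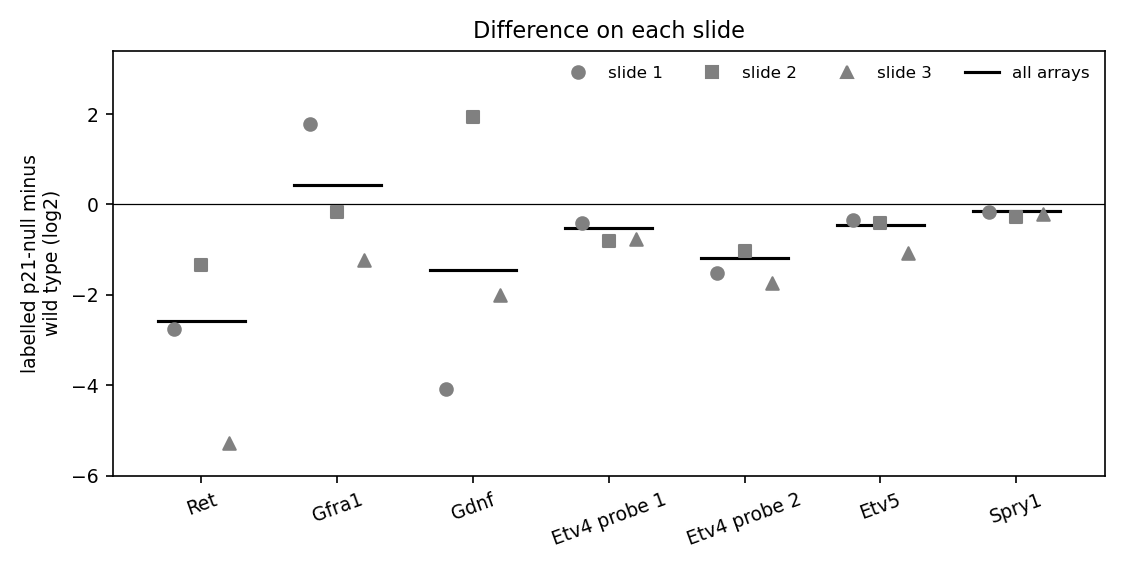
Difference between labelled p21-null and wild-type arrays (log2) for each probe on slides 1, 2 and 3 (markers) and over all 8 arrays (bars); slides 2 and 3 hold 1 array of each group, so single markers have no error. Ret, both Etv4 probes, Etv5 and Spry1 lie below 0 on every slide, while Gfra1 and Gdnf lie on both sides.

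Ret, Etv4, Etv5 and Spry1 had a negative difference on all 3 slides, that is 4 of 6 genes, beside 15.8% of everything tested. Slides 2 and 3 compare 1 array with 1 array, the slide differences come from the same arrays as the fit, and all 4 genes were read on the same RNA, so they are not independent of each other.

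The targets were also compared with each other from array to array. Among 15 pairs of the 6 genes, Etv4 and Etv5 had the highest correlation over the 8 arrays (Pearson r = 0.83, two-sided exact permutation p = 0.0132, 0.199 after Benjamini-Hochberg adjustment over the 15 pairs; Spearman rho = 0.79, exact permutation p = 0.0279, adjusted 0.347). It was 0.71 without wild-type replicates 2 and 4, the arrays farthest from the median of Etv4, and 0.80 for deviations from the group means. Etv4 and Spry1 followed with r = 0.68 (exact permutation p = 0.0686, adjusted 0.514; rho = 0.71, exact permutation p = 0.0576, adjusted 0.347), which dropped to 0.40 without the same 2 arrays. Etv5 and Spry1 had r = 0.58 (exact permutation p = 0.121, adjusted 0.607; rho = 0.69, exact permutation p = 0.0694, adjusted 0.347) and 0.82 without wild-type replicates 2 and 5. No pair passed after adjustment.

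For the receptor and the ligand the correlations with the targets over all 8 arrays were lower. Dim spots limit them: Ret was well above background on 4 wild-type and 0 labelled p21-null arrays, and Gdnf on 4 and 2. Ret correlated at 0.31 with Etv5, 0.13 with Etv4 and 0.14 with Spry1, and at −0.36 with Gfra1 (exact permutation p = 0.429, 0.743, 0.734 and 0.368; rho = 0.24, 0.0952, −0.0476 and −0.26; lowest adjusted value 0.847 for r and 0.794 for rho). Without labelled p21-null replicate 1 and wild-type replicate 2, the arrays farthest from the median of Ret, r was 0.64 with Etv5, 0.39 with Etv4, 0.35 with Spry1 and −0.0392 with Gfra1. Gdnf correlated at 0.37 with Etv5, 0.10 with Etv4 and −0.21 with Spry1 (exact permutation p = 0.376, 0.814 and 0.614; rho = 0.43, 0.24 and −0.24), and at −0.11, −0.14 and −0.45 without labelled p21-null replicate 1 and wild-type replicate 5. Gdnf and Ret correlated at 0.32 (exact permutation p = 0.452, adjusted 0.847), and at 0.12 without labelled p21-null replicate 1 and wild-type replicate 2. Wild-type replicate 2 shows the contrast on 1 array: its Ret spot was not above background, while its Etv5 signal was the highest of the 8 and its Etv4 signal the second highest.

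**Figure D3:**
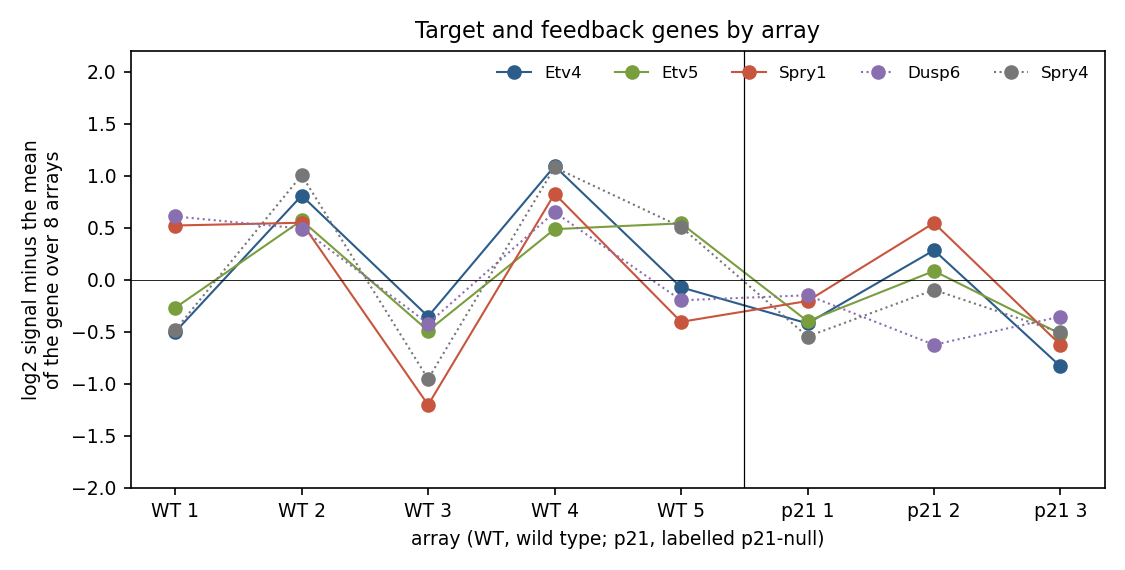
Log2 signal of Etv4 (brighter probe), Etv5, Spry1, Dusp6 and Spry4 on each array, minus the mean of that gene over the 8 arrays; lines join the values of 1 gene and replicates have no order. Wild-type replicates 2 and 4 are high and wild-type replicate 3 is low for all 5 genes, and among the labelled p21-null arrays replicate 2 is highest for Etv4, Etv5, Spry1 and Spry4. Spry2, which is not plotted, goes the other way, highest in wild-type replicate 3 (−0.11) and lowest in wild-type replicate 4 (−1.67).

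Genes with the most similar profile were sought for each of the 6 among 17021 (17022 for Ret) named genes well above background on at least 6 arrays, by Pearson r over the 8 arrays, as a description of the best of many. Etv5 was closest to Tcf7l1, a transcription factor of the Wnt pathway (r = 0.98), Prss35 (0.97) and Bace1 (0.96). Spry1 was closest to Fam89a (0.97), Msl3l2 (0.97) and Iftap (0.97), and Gfra1 to the fatty acid desaturase gene Fads1 (0.98), Golga3 (0.96) and Plpp1 (0.96). For Etv4 they were Zfpl1, Fam135a and Mical1 (0.96, 0.95 and 0.95), for Ret they were Ppp2r3c, Gpatch1 and Atp13a1 (0.96, 0.95 and 0.94), and for Gdnf they included A3galt2 and Olfr1131 (each 0.96). Ret itself did not reach 6 arrays well above background, so its profile rests partly on dim spots.

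The rest of the pathway was read from a list of 66 genes grouped by role, of which 65 passed the filter on dim probes. The exception was Gfral, a co-receptor gene whose probe cleared background on 0 of 8 arrays. In limma 0 of the 65 had an adjusted p under 0.05, the lowest being 0.302; 6 had an unadjusted p under 0.05 (9.23%, beside 10.1% of everything tested), 5 of them lower (beside 3.91% of everything tested) and 1 higher (beside 6.2%) in the arrays labelled p21-null. A negative difference was found for 53 of 65 (81.5%), beside 52.3% of everything tested, with a median of −0.42 beside −0.0303. That count was 53 with quantile scaling, 49 with median scaling, 56 with slide as a block and 46 with the replicate number as a block. Leaving out 1 array at a time gave 48 to 52. The groups were without overlap for 1 of the 65, Myb, beside 6.88%.

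Among the other ligands, Nrtn (neurturin) differed by −0.30, Pspn (persephin) by 0.0669 and Gdf15, which signals through RET with GFRAL, by −0.25. Artn (artemin) differed by 1.44, with an error (SE) of 0.87 (limma adjusted p = 0.648). Its co-receptor gene Gfra3 differed the other way. Gfra3 read −1.52, −1.93, −2.20, −3.82 and −0.62 in wild type and −4.01, −3.48 and −3.85 in the arrays labelled p21-null, so only wild-type replicate 4 reached the labelled p21-null range. The Gfra3 difference was −1.76 (SE 0.62; limma unadjusted p = 0.0200, adjusted p = 0.392). Gfra2, the neurturin co-receptor gene, differed by −0.69 (adjusted p = 0.584), and the 3 probes of Gfra4 gave −0.54, −0.30 and −0.29.

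Adaptors and effectors that carry the signal inside the cell were close to balanced, 5 of 12 with a positive and 7 with a negative difference and a median of −0.0723. The difference was negative for 52.3% of everything tested. An unadjusted p under 0.05 was found for 0 of 12, beside 10.1% of everything tested. Among 7 inhibitors of receptor signalling, 6 had a negative difference, beside the same 52.3%, and the median was −0.42. Spry4 and Spry2, the relatives of Spry1, differed by −0.61 with a standard error of 0.51 and by −0.50 with a standard error of 0.40. Dusp6, a phosphatase that switches off ERK, differed by −0.60 (SE 0.35; limma adjusted p = 0.631). It read 2.41, 2.29, 1.38, 2.45 and 1.60 in wild type and 1.65, 1.18 and 1.45 in the arrays labelled p21-null, which overlapped through wild-type replicates 3 and 5. None of the 7 had an unadjusted p under 0.05, beside 10.1% of everything tested.

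Of 9 target and duct tip genes 8 had a negative difference, beside 52.3% of everything tested. Etv1, the third factor of the Etv4 and Etv5 family, gave −1.12 and −1.43 on its 2 probes, the second being above background on 1 of 3 labelled p21-null arrays. Wnt11 differed by −0.33, Cxcr4 by −0.63 and Met by −0.16, with standard errors of 0.50, 0.77 and 0.38. Sox9 (−2.30, limma unadjusted p = 0.0104, adjusted p = 0.337) and Sox8 (−3.00, unadjusted p = 0.0183, adjusted p = 0.387), transcription factor genes active in duct tips and in other tissues such as the gonad, had the lowest unadjusted p-values on the lower side of the whole list. Sox8 cleared background on 4 wild-type arrays and on 1 labelled p21-null array. Myb went the other way at 1.63 (SE 0.45; limma unadjusted p = 0.00553, adjusted p = 0.302), reading −0.46 to 0.92 in wild type and 1.11 to 2.41 in the arrays labelled p21-null. Myb is also a gene of blood progenitors, and the mean of 10 erythroid markers moved the same way (2.66 ± 0.88 in wild type against 4.27 ± 0.49); its part in the Myb difference was not tested.

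Genes that set where Gdnf is made had a negative difference for 21 of 22 (95.5%, beside 52.3% of everything tested), with a median of −0.79. The mean of 12 mesenchyme markers differed by −0.78, and its part in these differences was not tested. Of the 22, 2 had an unadjusted p under 0.05 (9.09%, beside 10.1% of everything tested): Frem1, a basement membrane gene (−1.11, limma adjusted p = 0.481), and Foxc2, a forkhead factor of the mesenchyme (−1.28, adjusted p = 0.485). Pax2 differed by −0.60 with a standard error of 0.45. The only probe of Eya1, a co-activator needed for Gdnf expression, differed by 0.0259 with a standard error of 0.31. That probe read from 6.46 to 7.37 over the arrays, far above the percentile that sets the scale. Whether it reports Eya1 RNA was not tested, so no conclusion on Eya1 is drawn from its difference. Of 8 regulators of Ret in the duct 6 had a negative difference and 0 had an unadjusted p under 0.05, beside 52.3% and 10.1% of everything tested. Gata3 differed by −0.83 and Pax8 by −1.10, with standard errors of 0.83 and 1.31, while Lhx1 differed by 0.0855. Pax8 ranged in wild type from −5.93 in replicate 5 to 0.0477 in replicate 3.

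**Figure D4:**
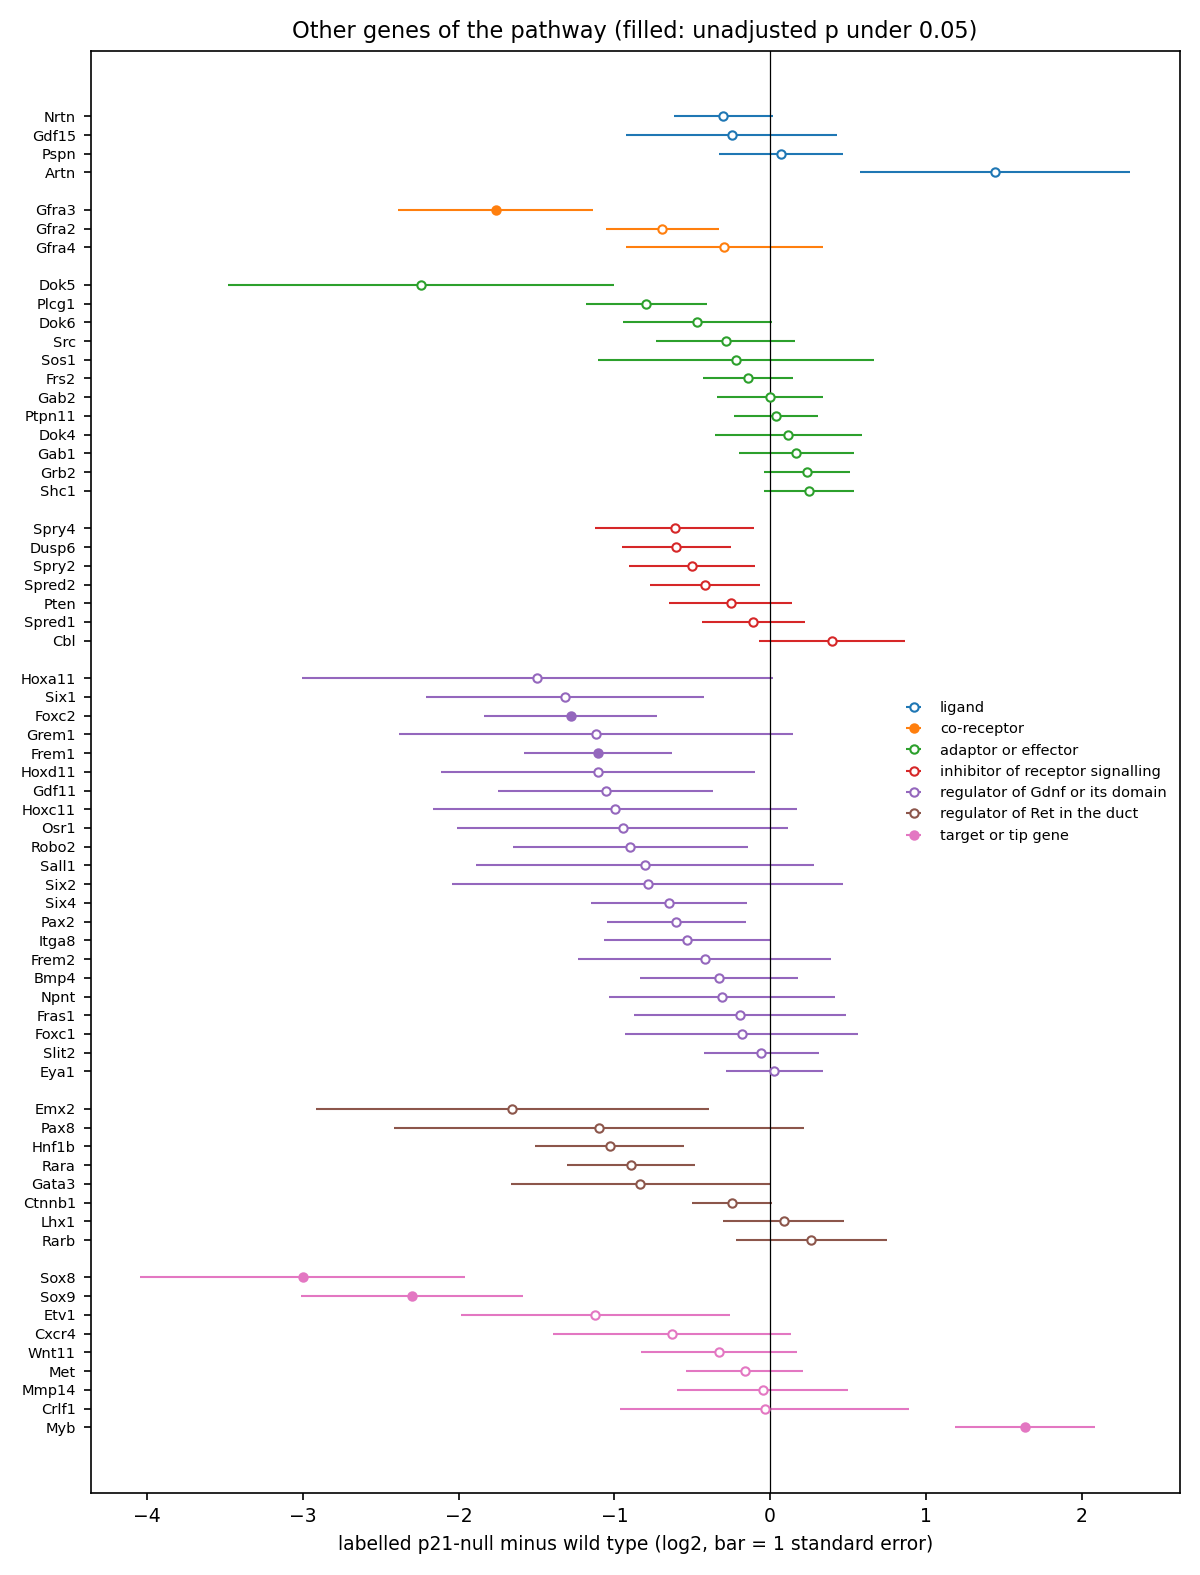
Difference between labelled p21-null and wild-type arrays (log2) with 1 standard error for the 65 other pathway genes measured, grouped by role; filled points have an unadjusted p under 0.05. Of the 65 points 53 lie below 0, and 6 are filled: Gfra3, Foxc2, Frem1, Sox8 and Sox9 below 0 and Myb above.

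The cut tissue held RNA with markers of several cell types, at levels that differed between arrays, and in bulk samples fewer cells of a type and less RNA per cell cannot be told apart. The labelled tissue is the mesonephric tubule, and the labels do not say whether duct was cut with it. On the filter, 12 of 12 tubule markers and 15 of 16 duct markers passed, the exception being Calb1. So did 50046 of all 55681 probes and all 10 liver markers, so passing does not show that duct or tubule cells were present. The duct mean was −0.13, −2.59, −2.44, −1.05 and −1.85 in wild type and −2.77, −0.95 and −2.94 in the arrays labelled p21-null, a difference of −0.61. Its summed linear level, in multiples of the 75th percentile signal, ran from 4.01 to 29.2 in wild type and from 5.73 to 18.0 in the other group. Labelled p21-null replicate 2 had the highest duct mean of its group and the highest Ret, Etv4, Etv5 and Spry1 signals of its group. Its Gfra1 signal was the lowest of its group. Wild-type replicate 2 had the lowest duct mean and the lowest Ret signal of its group, yet the highest Etv5 and the second-highest Etv4 and Spry1 signals. Wild-type replicate 1 had the highest duct mean and the lowest Gfra1 signal. The tubule mean differed by −0.40, with 8 markers negative and 4 positive, where 52.3% of everything tested was negative. The largest positive differences were those of Ttr (2.10) and of Hnf4a (1.43), a factor of proximal tubule and liver. They pull this mean up, so it is not set against that of the duct. Ttr was lowest in wild-type replicate 2 (0.05) and highest in labelled p21-null replicate 1 (5.25), the arrays with the lowest and highest liver marker means. The part of liver RNA in the Ttr difference was not tested.

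Markers of neural crest and autonomic cells, the other usual home of Ret, also had a lower mean in the arrays labelled p21-null. Of 15 such markers 14 had a negative difference, beside 52.3% of everything tested. The mean of the 15 was −1.28 ± 0.67 (SD, n = 5) in wild type and −2.66 ± 0.53 (SD, n = 3) in the arrays labelled p21-null. Per array this mean ran from −2.39 to −0.77 in wild type and from −3.16 to −2.11 in the other group, overlapping through wild-type replicate 1. The summed linear level ran from 10.3 to 47.2 in wild type and from 6.61 to 8.84 in the other group, without overlap. Of single genes and features, 6.88% were without overlap. Sox10, a transcription factor of neural crest cells, read −2.19, −0.97, −3.39, −1.81 and 0.11 in wild type and −3.84, −2.46 and −3.24 in the arrays labelled p21-null. Wild-type replicate 1, with a high Ret signal, had the highest Gata3 (0.90) and Hoxb7 (0.92) signals, 2 duct markers. Wild-type replicate 5, with the highest Ret signal, had the highest Sox10 signal and a low Hoxb7 signal (−2.87), but its summed neural level (10.8) was among the lowest of wild type, against 47.2 in replicate 3 and 34.5 in replicate 4. Wild-type replicate 2 had the lowest Ret signal of its group and its second-highest Sox10 signal. Liver markers moved the opposite way, with all 10 higher, where 52.3% of everything tested had a negative difference. Their mean was 1.59 ± 1.27 in wild type against 3.96 ± 0.71. The groups overlapped, at 3.30 in wild-type replicate 5 and 3.15 in labelled p21-null replicate 2. The part of any of these cells in the differences of the 6 genes was not tested.

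**Figure D5:**
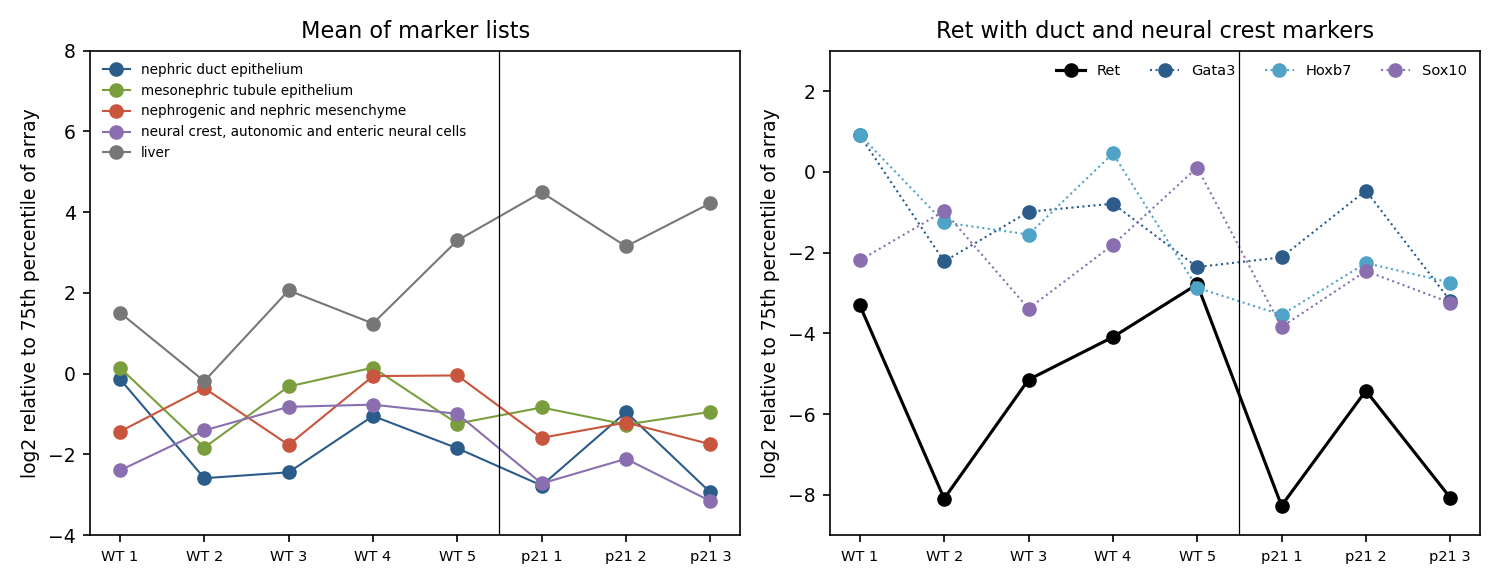
Left, mean log2 signal of 5 marker lists on each array; right, Ret with the duct markers Gata3 and Hoxb7 and the neural crest marker Sox10, with the array's 75th percentile at 0. Lines join values of 1 list or gene and replicates have no order; Ret is highest in wild-type replicates 5 and 1; Sox10 is highest in wild-type replicates 5 and 2, while the neural list mean is highest in wild-type replicates 4 and 3.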

How the data were processed

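Total RNA was hybridised to 1-colour (Cy3) Agilent arrays, 5 wild type and 3 labelled p21-null. Per the file headers, Agilent Feature Extraction 10.7.3.1 made the deposited intensity values, with background subtracted by that software and nothing normalized between arrays. A deposited table of the series holds log2 values; the submitters' processing notes name limma, with no role or order, and how background was corrected for that table is not stated there.

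Each array's log2 processed intensity was set relative to its own 75th percentile (control spots aside), without outlier spots, for 50046 probes well above background on at least 3 of 8 arrays. Gene symbols came from a RefSeq table (GRCm38.p6) by unversioned accession, for 26056 of 55681 probes. Each gene was represented by its brightest probe on average (33619 genes and unnamed features). The group test was limma's moderated test (version 3.58.1, R 4.3.3; lmFit, eBayes, no covariate, threshold 0.05 after Benjamini-Hochberg adjustment), a fit checked on simulated data; single probes were also compared by exact permutation over 56 splits (permutations of correlations in Python 3.11.15). Slides were told apart by the slide number that each deposited array carries.

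The 6 genes and all lists were chosen with earlier results of these data known. Named are all probes of the 6, Cdkn1a, and from the wider list the ligands, co-receptors, Etv1, Spry2, Spry4, Dusp6, Wnt11, Cxcr4, Myb, Met, Gata3, Pax2, Pax8, Lhx1, Eya1, genes with an unadjusted p under 0.01, and the 3 closest profiles of each of the 6, of which 1 is not reported here; Sox8, Sox9, Frem1 and Foxc2 and the single markers named were chosen after their values were seen. Alternatives were other scalings, normexp with an offset of 50 on median signals (mean spot signals are not a column used here), other filters and probe rules, slide or replicate number as a block, array weights, trend and robust moderation, the deposited table, dim values at a floor, and leaving out each array. RefSeq promoter entries were used for Gdnf, Gfra1, Etv5 and Spry1.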

Additional observations from a re-analysis of the deposited data

How the results depend on the processing

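No setting put any of the 6 genes past the adjusted threshold (0 in each), and Ret, Gdnf, Etv4 and Etv5 kept a negative difference in every setting that tested them; Ret and Gdnf were not tested with the filter on all 8 arrays. Leaving out 1 array at a time, the differences ranged from −3.48 to −2.06 for Ret, −2.20 to −0.17 for Gdnf, −0.82 to −0.26 for Etv4, −0.63 to −0.33 for Etv5, −0.0322 to 0.90 for Gfra1 and −0.47 to 0.11 for Spry1; the last 2 turned sign, Gfra1 without labelled p21-null replicate 1 (−0.0322) and Spry1 without wild-type replicate 4 (0.0397) or labelled p21-null replicate 3 (0.11). The cause was not tested. The count of wider-list genes at an unadjusted p under 0.05 was 6, 4 to 10 without 1 array (10 without wild-type replicate 3) and 11 with array weights, where labelled p21-null replicate 3 had a weight of 3.04 and the others at most 1.38.

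Replicate numbers 1 to 3 are shared by the groups, but same-numbered arrays correlated at only 0.0645, −0.0841 and −0.0739 in their deviations from the group means; labelled p21-null replicates 1, 2 and 3 each correlated best with a wild-type array of their own slide (replicates 3, 4 and 5). With the replicate number as a block the differences were −1.74 for Ret, 0.87 for Gfra1, −1.54 for Gdnf, −0.31 for Etv4, −0.22 for Etv5 and −0.0503 for Spry1, with 0 genes past the adjusted threshold and 7 wider-list genes at an unadjusted p under 0.05. Signal over background limits Ret and Gdnf, whose spots were well above background on 4 and 6 of the 8 arrays.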

Other observations

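Markers of the mesenchyme and gonad beside the duct gave further values on the tissue around these genes. Of 12 mesenchyme markers 10 had a negative difference, beside 52.3% of everything tested. The mean of the 12 was −0.73 ± 0.81 (SD, n = 5) in wild type and −1.52 ± 0.28 (SD, n = 3) in the arrays labelled p21-null. Wt1, a transcription factor of nephrogenic and gonadal cells, differed by −1.33 and Foxd1, a stromal factor, by −1.80, with limma adjusted p-values of 0.325 and 0.612, while Cited1, a marker of nephron progenitors, differed by 0.63 (limma adjusted p = 0.669). Cdh6, a cadherin of early tubules, differed by −2.27 and Hnf4a, a factor of proximal tubule and liver, by 1.43, with limma adjusted p-values of 0.336 and 0.675. Of 10 gonadal somatic markers 5 had a positive and 5 a negative difference, and their mean differed by −0.59. Of the negative ones 3 had a limma unadjusted p under 0.05 (Dhh, −1.99; Sox9, −2.30; Cyp26b1, −2.81; adjusted p = 0.283, 0.337 and 0.339), and 0 of the positive ones did. Of everything tested, 3.91% had such a limma p with a negative difference and 6.2% with a positive one. Sox9 was also counted above among the target and duct tip genes. The brighter Foxl2 probe, counted as positive at 0.0367, read from 6.79 to 7.46 over the arrays, as high as that of Eya1. Whether it reports Foxl2 RNA was not tested. Of 6 measured germ cell markers 3 had a positive and 3 a negative difference.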
